A study of Mus musculus with 4 samples.

Results

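The genes described here are the carboxylesterases (Ces), the cytosolic sulfotransferases (Sult), the UDP-glucuronosyltransferases and their relatives (Ugt), the soluble glutathione transferases (Gst), the microsomal glutathione transferases (Mgst), the alcohol dehydrogenases (Adh) and the aldehyde dehydrogenases (Aldh). Members were taken by gene symbol from probe sets that name exactly 1 gene, and 1 probe set stands for each gene, chosen by its mean intensity across all 4 arrays. This gave 85 genes of the 18193 in the table: 13 Ces, 13 Sult, 9 Ugt, 20 Gst, 3 Mgst, 7 Adh and 20 Aldh. Since that mean picked the probe set, levels are a description. The 85 genes were read by 121 probe sets in all, and 8 further probe sets that name several genes, at least 1 of them from these families, are not used here. No Ugt1 gene was read by a probe set of its own.

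The study set organoids of mouse intestine without treatment beside organoids exposed over 24 h to 4-hydroxytamoxifen (4OHT), a drug that switches on tamoxifen-dependent recombinases. Organoids are small epithelial cultures kept in a gel, here Matrigel. All carried Apc fl/fl, floxed alleles of the brake on Wnt signalling, and the treated ones are labelled Apc-deficient. Both arms were sampled on day 4 and on day 6, with 1 array in each of the 4 groups and so no replicates, which limits the precision of every value. The recombinase, the number of mice and whether the arrays stem from separate cultures are not given in the sources used here. Treated organoids that lack the floxed alleles are not among the arrays, so effects of the drug and of Apc loss cannot be told apart.

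These families form the chemical defence and much of the small-molecule metabolism of the gut lining. Esterases and dehydrogenases expose or oxidise reactive groups on drugs, food compounds, alcohols and retinoids. Transferases then attach sulfate, glucuronic acid or glutathione, which makes the products more soluble and easier to export. In the intestine many of these enzymes are known to be most abundant in the absorptive cells of the villus.

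Apc itself has 4 probe sets, which with 4OHT differed by -0.40 to 0.77 at day 4 and by 0.0085 to 0.68 at day 6; where the deleted stretch lies relative to them is not known here, so they do not check the labels. Axin2, a target of Wnt signalling, rose with 4OHT by 0.82 ± 0.21 in the test described next. The median intensity of all probe sets was 19.3 to 21.96 per array, and the spread of values was wider at day 6 than at day 4, so levels are not strictly comparable between the days. The epithelial markers Epcam, Cdh1, Krt8, Krt18, Krt19 and Cldn7 were bright on every array. None of the 6 passed the test. Markers of other cells were dim: the summed intensity was 140.3 to 239 over 9 fibroblast and muscle genes, 55.05 to 120.1 over 5 endothelial genes and 153.6 to 283.2 over 8 immune genes. No tested gene of these 3 lists passed.

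Differences are on the scale log2(intensity + 16), which understates the change of dim genes, and folds are on the same scale. The test was limma's moderated test of the 4OHT effect in a model that also held the day, with Benjamini-Hochberg adjustment over all 13192 genes whose highest value reached the median of all values. Genes past an adjusted p of 0.05 are said to have risen or fallen. The residual error of this test is the disagreement between the days, with 1 residual degree of freedom, so it does not measure the spread between cultures. The test combines it with a prior shared by all genes, which carries 15.2 degrees of freedom. The standard errors given after ± therefore lie near the prior SD of 0.215 where the days agree. They are larger where the days disagree, as for Ugt2b5 (0.51) and Aldh1a7 (0.36), and do not measure replicate spread of a gene. The members were chosen with earlier results of these arrays known, and their calls are not independent evidence.

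Of the 85 members, 63 were tested and 24 fell with 4OHT, while none rose, 39 did not pass and 22 were too dim to be tested. Over all genes tested, 2.25% fell and 0.97% rose. The members that fell came from all 7 families: 6 Ces, 3 Sult, 4 Ugt, 2 Gst, 3 Mgst, 3 Adh and 3 Aldh. Their adjusted p-values by limma ran from 2.9e-05 (Sult1d1) to 0.040 (Aldh1a7). The count of 24 became 7 with a pseudocount of 1, and 0 with a pseudocount of 64, without the level filter or without the day term, and 0 to 9 when 1 array and the day term were left out together. Of the 24, Adh4 and Ugt2b5 reached the level filter, an intensity of 20.9, on no 4OHT array, and Ces1f, Ces2b, Sult1c2 and Ugt2a3 on 1. These genes entered the test through arrays where they are high, and the size of their estimates depends on the pseudocount. At day 4, 11 of 85 members were at least 2-fold lower with 4OHT, against 0.885% of all genes, and at day 6 there were 24, against 2.15%. No member was 2-fold higher on either day, where 0.726% and 0.638% of all genes were. On both days 9 members were 2-fold lower, against 0.577% of all genes, and none was 2-fold higher, against 0.148%. The median difference over the 85 members was -0.20 at day 4 and -0.23 at day 6, beside 0.03 and 0.0012 over all genes. On the same arrays 9 of 18 enterocyte markers fell and none rose, with medians of -0.87 and -1.20. Their summed intensity was 5539 in untreated and 2614 in 4OHT organoids at day 4, and 18909 and 9114 at day 6. In RNA from whole organoids, fewer absorptive cells and less RNA per cell cannot be told apart. The signal of the Actb control probe sets also dropped more steeply from the 3' to the 5' end in the 4OHT arrays, with an added difference of 0.94 on day 4 and of 0.62 on day 6, and for Gapdh it was 0.87 and 0.56. The hybridization controls differed between 4OHT and untreated arrays by -0.38 at day 4 and 0.89 at day 6 in the median, and the poly-A controls by -0.46 and 1.35. The part of these shifts in the results was not tested.

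**Figure D1:**
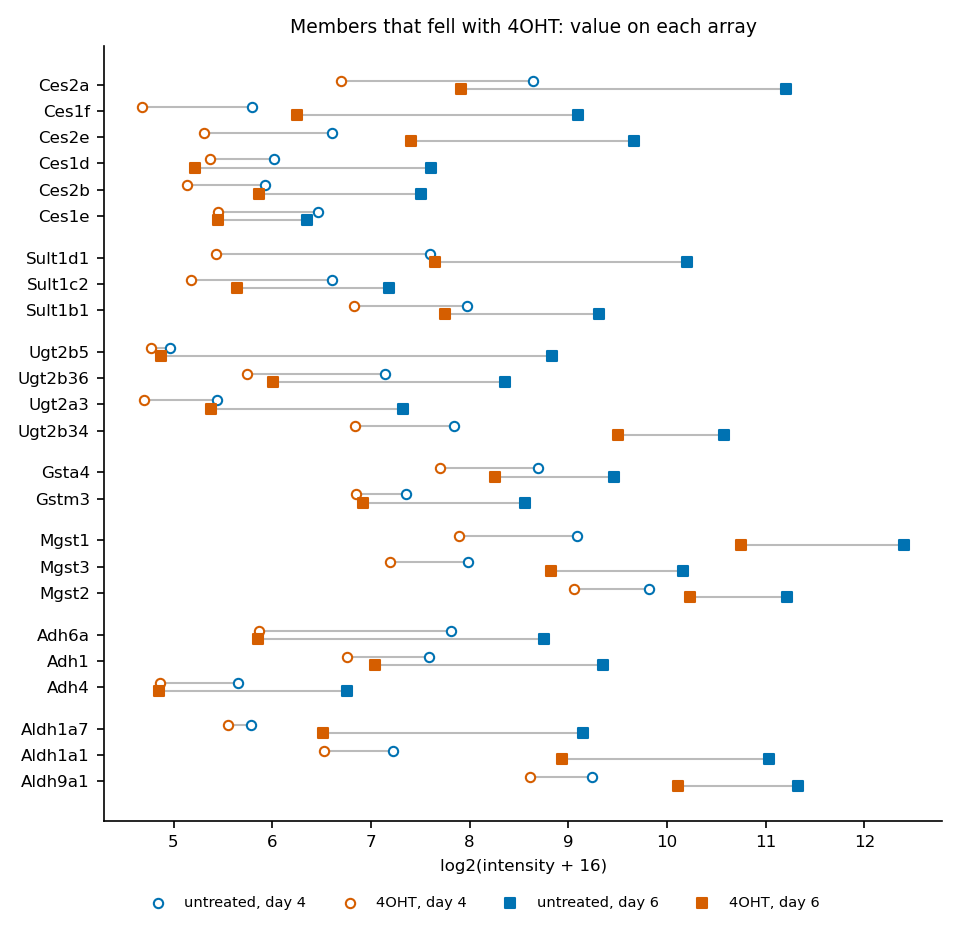
Value of each of the 24 members that fell, as log2(intensity + 16), on each of the 4 arrays. Open circles are day 4 and filled squares day 6, blue is untreated and orange 4OHT, and grey lines join the arrays of one day. In 14 of the 24 genes both orange points lie left of both blue points; Ugt2b5 differs almost only at day 6.

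The promoters of 5 members are shown here because their 4OHT effects were the largest in size. They are Ces2a (chr8:104733753-104734052, plus strand), Adh6a (chr3:138313036-138313335, plus strand), Sult1d1 (chr5:87568957-87569256, minus strand), Ugt2b5 (chr5:87140291-87140590, minus strand) and Ugt2b36 (chr5:87092506-87092805, minus strand), from RefSeq on GRCm38.p6. Ces1f, which belongs with them by size, had no entry. Each runs 5' to 3' from 250 bases before to 50 bases after the start of the gene, with matches to any of 6 motifs in capitals.
Ces2a: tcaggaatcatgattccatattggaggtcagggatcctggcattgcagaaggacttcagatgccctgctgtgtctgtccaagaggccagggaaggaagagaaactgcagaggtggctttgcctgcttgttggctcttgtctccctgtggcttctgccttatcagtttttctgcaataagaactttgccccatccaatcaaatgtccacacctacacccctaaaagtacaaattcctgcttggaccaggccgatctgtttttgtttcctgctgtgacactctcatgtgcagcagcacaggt
Adh6a: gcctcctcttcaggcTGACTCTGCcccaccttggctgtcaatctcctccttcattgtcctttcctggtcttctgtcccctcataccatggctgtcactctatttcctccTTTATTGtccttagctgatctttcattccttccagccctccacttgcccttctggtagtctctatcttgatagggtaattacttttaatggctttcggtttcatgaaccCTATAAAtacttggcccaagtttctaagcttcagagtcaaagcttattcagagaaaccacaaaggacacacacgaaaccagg
Sult1d1: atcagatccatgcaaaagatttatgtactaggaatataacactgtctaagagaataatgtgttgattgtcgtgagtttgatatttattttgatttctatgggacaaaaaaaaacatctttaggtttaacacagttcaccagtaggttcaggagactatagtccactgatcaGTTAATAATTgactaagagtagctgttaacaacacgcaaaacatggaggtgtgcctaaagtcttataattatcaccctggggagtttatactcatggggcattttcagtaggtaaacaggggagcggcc
Ugt2b5: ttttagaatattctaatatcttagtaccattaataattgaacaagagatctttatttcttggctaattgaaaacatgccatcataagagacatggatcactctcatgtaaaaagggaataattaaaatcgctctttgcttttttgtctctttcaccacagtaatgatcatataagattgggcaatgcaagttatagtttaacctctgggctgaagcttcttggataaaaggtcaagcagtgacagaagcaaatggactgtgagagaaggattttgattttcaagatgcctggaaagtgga
Ugt2b36: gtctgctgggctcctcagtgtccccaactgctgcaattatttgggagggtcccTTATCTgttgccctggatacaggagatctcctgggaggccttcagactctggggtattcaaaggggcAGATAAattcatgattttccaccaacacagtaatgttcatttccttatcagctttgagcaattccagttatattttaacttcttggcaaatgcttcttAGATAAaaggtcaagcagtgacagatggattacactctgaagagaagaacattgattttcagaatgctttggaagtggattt
The motifs, searched on both strands, were CTTTGAT for the TCF/LEF factors of Wnt signalling, CAAAGTCC for HNF4, the HNF1 motif (its match in Sult1d1 is in capitals above), TTTATNG for CDX, AGATAA for GATA factors and TGACNNNGC for the antioxidant response element. Matches of the TCF/LEF and HNF4 motifs can overlap. Ces2a and Ugt2b5 held no match in this window. Adh6a held 3, of the CDX and antioxidant motifs, Sult1d1 held 1 of HNF1, and Ugt2b36 held 3 of GATA. Ugt2b5 and Ugt2b36, which are neighbours on chromosome 5, shared a run of 24 bases near their starts, gataaaaggtcaagcagtgacaga, the longest shared by any pair of the 5. Over the 23 windows of the 20 fallen members with an entry, the GATA motif was in 6 (26.1%), and over the 42 windows of tested members that did not pass it was in 5 (11.9%). Over all 85 windows of members, those too dim to be tested included, it was in 16 (18.8%). A link of this motif to the fall was not tested. The CDX motif was in 3 (13.0%) and the TCF/LEF motif in none of the 23. Of all 32851 windows, 11.2% held the GATA, 10.9% the CDX and 3.73% the TCF/LEF motif. HNF4 and HNF1 were each in 1 of the 23, beside 1.42% and 0.40% of all windows, and the antioxidant motif in 3, beside 12.4%. A match is a string of letters, not a site shown to be bound.

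Carboxylesterases hydrolyse esters and amides, among them prodrugs and lipids. The medians of the 13 differences were -0.55 (day 4) and -0.90 (day 6), and -0.27 and -0.49 with a pseudocount of 64. Ces2a had intensities of 383 in untreated and 87.8 in 4OHT organoids at day 4, and of 2339 and 225 at day 6. The 4OHT arrays were the lowest pair, and even the 4OHT array of day 6 lay below the untreated array of day 4. Ces2a fell by 2.62 ± 0.27 (SE, n = 4 arrays), with an adjusted p of 5.2e-05 by limma. For Ces2e the day 4 pair was 81.1 and 23.7 and the day 6 pair 794.5 and 153, and it fell by 1.77 ± 0.24. Its 4OHT array of day 6 was above the untreated array of day 4, so the arms overlapped when the days are pooled. Ces2b, which lies next to Ces2a, fell by 1.22 ± 0.23. Of the other Ces2 genes, Ces2g differed by -0.23 and -0.94 without passing (adjusted p = 0.23 by limma), and Ces2f had no intensity above 9.75 and was not tested.

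Among the Ces1 genes, Ces1f went from 39.4 to 9.73 and from 533 to 60.4, and fell by 1.98 ± 0.30. Ces1d, which encodes a triacylglycerol hydrolase of the endoplasmic reticulum, went from 48.9 to 25.4 and from 179 to 21.2, and fell by 1.52 ± 0.30. Its 3 probe sets all gave lower values with 4OHT on both days. Ces1e, known as egasyn, the protein that retains beta-glucuronidase in the endoplasmic reticulum, went from 72.3 to 27.6 and from 66.0 to 27.9. It fell by 0.96 ± 0.21 and was the only one of the 24 that was more different at day 4 than at day 6. Ces1c did not pass, with differences of -0.55 and 0.16, and neither did Ces4a or Ces5a. Ces1g and Ces1h were not tested. Ces1f was read by an _s_at probe set, a kind that can bind several transcripts, and close copies among the Ces, Ugt2b, Gstm and Aldh1a genes may share signal.

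Alcohol dehydrogenases interconvert alcohols and aldehydes, retinol included. Of the 7 genes 3 fell. Adh6a had 209 in untreated and 42.5 in 4OHT organoids at day 4, and 417 and 42.1 at day 6. Both 4OHT arrays sat at the same low value, and it fell by 2.42 ± 0.24 (adjusted p = 5.2e-05 by limma). Adh1, the class I enzyme that oxidises ethanol and retinol, went from 177 to 92.1 and from 635 to 116, and fell by 1.57 ± 0.28. Adh4, the class II enzyme, went from 34.3 to 13.0 and from 92.5 to 12.8, with both 4OHT values under the level filter, and passed the test with an estimate of -1.35 ± 0.25. In these 3 genes both 4OHT arrays lay below both untreated arrays. Adh5, the class III enzyme that clears formaldehyde bound to glutathione, did not pass. Its values were 552 and 468 at day 4 and 1106 and 1068 at day 6, a difference of -0.14 ± 0.21. Adh6b stood high on 1 array only, with 55.4 in untreated organoids at day 4 against 15.7 to 18.4 on the other arrays, and did not pass. Adh7, the retinol dehydrogenase of the stomach and upper gut lining, differed by -0.31 and -0.04 without passing, and the pseudogene Adh6-ps1 was not tested. The median of the family was -0.79 at day 4 (-0.35 with a pseudocount of 64) and -0.07 at day 6; at day 6 the genes that did not fall lay between -0.04 and -0.07.

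Aldehyde dehydrogenases oxidise aldehydes to acids. Of the 20 genes 16 were tested and 3 fell, with medians of 0.0085 and -0.20. Aldh1a1, which makes retinoic acid from retinaldehyde, had intensities of 133.5 and 76.2 at day 4 and of 2076 and 474.5 at day 6, untreated and 4OHT. Its level at day 6 was far above that of day 4 in both arms, and within each day the 4OHT array was lower. It fell by 1.39 ± 0.27 (adjusted p = 0.0072 by limma). Aldh1a7, its neighbour and close copy, went from 39.1 to 30.9 and from 552 to 75.4 and fell by 1.43 ± 0.36, a call carried by day 6. Aldh9a1, which acts in carnitine synthesis, went from 591 to 376 and from 2553 to 1093 and fell by 0.92 ± 0.22. Aldh1b1, a mitochondrial enzyme, differed by 0.10 at day 4 and -0.70 at day 6 without passing. Aldh6a1, an enzyme of valine breakdown, was lower on both days by 0.74 and 0.72, and missed the threshold (adjusted p = 0.075 by limma). Aldh1l1, an enzyme of folate metabolism, differed by -0.26 and -1.09 without passing. The highest estimate of the 63 tested members was that of Aldh7a1, of lysine breakdown, with 23.2 and 44.8 at day 4 and 29.2 and 49.2 at day 6. That is a difference of 0.58 ± 0.21, which did not pass (adjusted p = 0.18 by limma), and another of its probe sets gave -0.10 and 0.06. The mitochondrial Aldh2 differed by -0.17 and -0.71, without passing.

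**Figure D2:**
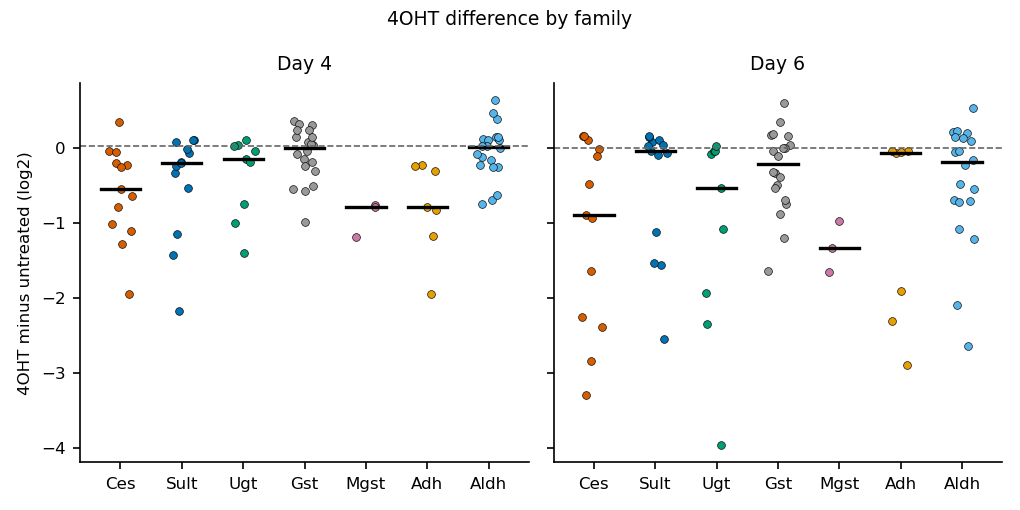
Difference of 4OHT from untreated organoids, in log2, for every member of each family at day 4 (left) and day 6 (right). Each point is a gene, black bars are family medians and the dashed line is the median of all genes. The Gst and Aldh families sit around the dashed line at day 4, while all 3 Mgst genes and all 7 Adh genes lie below it on both days.

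Sulfotransferases transfer sulfate to hormones, phenols and sterols. Of the 13 genes only 6 were bright enough to be tested, and 3 of these fell, all of the Sult1 group. Sult1d1, which acts on catecholamines and other small amines and phenols, had 178 in untreated and 27.1 in 4OHT organoids at day 4, and 1162 and 185 at day 6. The 4OHT array of day 6 reached the level of the untreated array of day 4. It fell by 2.36 ± 0.21 (adjusted p = 2.9e-05 by limma), and its second probe set differed by -1.03 and -2.03. Sult1c2 went from 81.1 to 20.2 and from 129 to 33.8 and fell by 1.48 ± 0.21. Sult1b1, which sulfates thyroid hormones and phenols, went from 236 to 97.5 and from 617 to 199 and fell by 1.35 ± 0.21. In both genes the 4OHT arrays lay below both untreated arrays. Sult2b1, a sterol sulfotransferase, differed by -0.25 and -1.12 without passing. Sult1a1, a phenol sulfotransferase, stood between 20.2 and 22.2 on all 4 arrays. The 7 genes that were not tested had no intensity above 15.4 (Sult2a8, untreated at day 4).

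The Ugt2 enzymes attach glucuronic acid to steroids, bile acids, fatty acids and drugs. Of 9 Ugt genes 5 were tested and 4 fell. Ugt2b36 went from 125 to 37.4 and, at the later day, from 312 to 48.3, and fell by 1.88 ± 0.24. Ugt2a3 went from 27.6 to 9.98 and from 144 to 25.7 and fell by 1.34 ± 0.26. Ugt2b34 had 213 and 98.5 at day 4 and 1517 and 709 at day 6, and fell by 1.04 ± 0.21 on an _s_at probe set. Its other probe set differed by -1.19 and -2.23. Ugt2b5 was under the level filter on 3 arrays, with 15.1 and 11.3 at day 4 and 13.3 in 4OHT organoids at day 6, and bright on the untreated array of day 6, with 441. Its differences were -0.19 at day 4 and -3.96 at day 6, the latter set against a value under the filter, so that its size depends on the pseudocount. It passed with an estimate of -2.08 ± 0.51 (adjusted p = 0.035 by limma), a call that rests on that 1 array and 1 probe set. The estimate was -2.67 with a pseudocount of 1 and -1.39 with 64, and the adjusted p by limma was then 0.326 and 0.467. Ugt2b35 was bright at day 6 in both arms (505 untreated, 343 with 4OHT) and did not pass (-0.29 ± 0.22). Ugt2b1, Ugt2b37, Ugt2b38 and Ugt8a, which acts in the synthesis of galactolipids, were not tested.

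Glutathione transferases conjugate glutathione to electrophiles. The soluble enzymes were the family with the smallest share of fallen members, 2 of 17 tested. Gsta4, which acts on products of lipid peroxidation, had 399 in untreated and 192 in 4OHT organoids at day 4 and 689.5 and 290.3 at day 6. It fell by 1.10 ± 0.21 (adjusted p = 0.0066 by limma), with both 4OHT arrays below both untreated arrays. Gstm3 went from 148 to 99.0 and from 363 to 105 and fell by 1.08 ± 0.25, on an _s_at probe set. Its other probe set was under the level filter and differed by -0.12 and -0.30. Gsta3 (-0.55 and -0.75) and Gsta2 (-0.31 and -0.88) did not pass. Gstp1, the pi class enzyme, had 2695 and 2973 at day 4 and 3866 and 3854 at day 6, a difference of 0.07 ± 0.21. Gsto1, of the omega class, differed by -0.24 and -0.39. The theta class genes Gstt1, Gstt2 and Gstt3 were higher with 4OHT on both days, by 0.14 to 0.59, and none passed. Gstt1 was the most different, with 106 and 129 at day 4 and 145 and 226 at day 6 (0.42 ± 0.21, adjusted p = 0.41 by limma). Gstm5 was also higher on both days, by 0.32 and 0.18, without passing.

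All 3 microsomal glutathione transferases, membrane enzymes that also serve lipid mediator synthesis, fell. Mgst1 had 527.5 in untreated and 222 in 4OHT organoids at day 4 and 5390.4 and 1702 at day 6. It fell by 1.42 ± 0.22 (adjusted p = 0.0012 by limma). Mgst3 went from 237 to 130.5 and from 1131 to 437 and fell by 1.07 ± 0.22. Its other probe set, also past the level filter but dim (16.8 to 28.9), differed by only -0.11 and -0.08. Mgst2, which can make leukotriene C, went from 889 to 518 and from 2355 to 1187 and fell by 0.87 ± 0.21. In each of the 3, by its brightest probe set, the 4OHT array of day 6 was brighter than the untreated array of day 4, so the arms overlapped when the days are pooled.

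**Figure D3:**
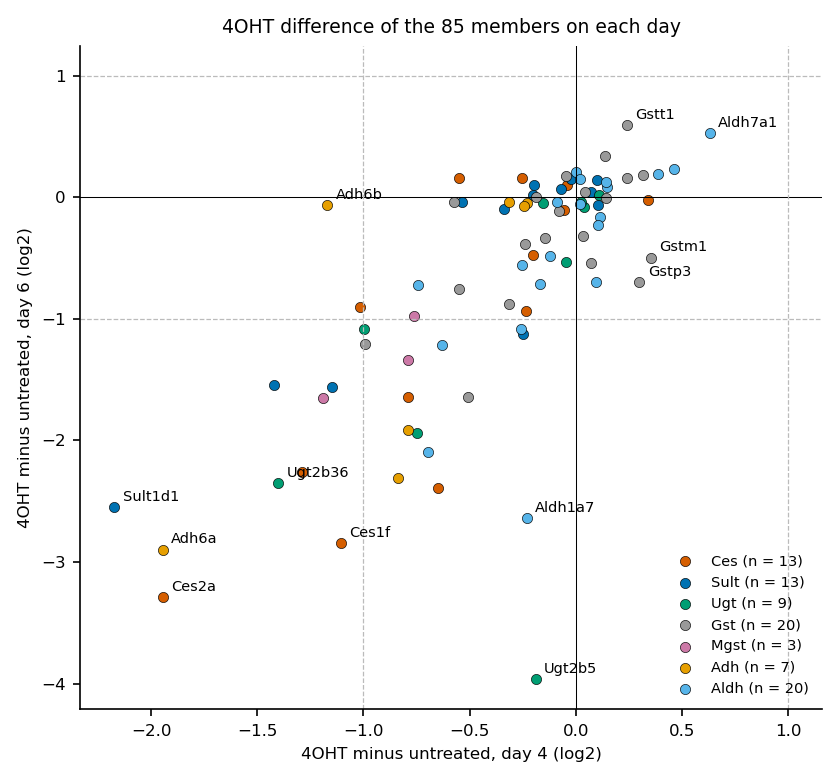
Difference of 4OHT from untreated organoids at day 4 (x axis) and day 6 (y axis), in log2, for the 85 members, coloured by family. Dashed lines mark 2-fold; 9 genes lie below it on both days, Ugt2b5 lies far below it at day 6 alone and no gene lies above it on either day.

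Of the 24 members that fell, 23 were more different at day 6 than at day 4. In 13 the 2-fold mark was passed at day 6 alone, in 1 (Ces1e) at day 4 alone, and in 1 (Mgst2) on neither day. Of all genes, 0.885% were 2-fold lower with 4OHT at day 4 and 2.15% at day 6, while 0.726% and 0.638% were 2-fold higher. Values also spread wider at day 6, and whether a larger size at day 6 is particular to these families was not tested. The count of 23 was not made for all fallen genes. Counted over the 4 arrays without regard to day, 19 of the 85 members had both 4OHT arrays below both untreated arrays, against 4.9% of all genes, and 3 (Aldh1a2, Aldh7a1 and Gstt2) had both above, against 8.55%. Of the 24 that fell, 14 were among the former. The other 10 were Aldh1a1, Aldh1a7, Aldh9a1, Ces1f, Ces2e, Mgst1, Mgst2, Mgst3, Sult1d1 and Ugt2b34. In these the 4OHT array of day 6 lay above the untreated array of day 4.

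The day comparison was made within each arm, 1 array against 1, with the scaling between days unknown. In untreated organoids 30 of 85 members were at least 2-fold higher at day 6 than at day 4, beside 17.5% of all genes, and 2 (Adh6b and Gstm7) were 2-fold lower, beside 3.84%. With 4OHT 17 were 2-fold higher, beside 11.9%, and none lower, beside 1.95%. The 30 and the 17 shared 16 members, and 10.2% of all genes were 2-fold higher in both arms. The medians of the members were 0.52 and 0.10, beside -0.08 and -0.09 for all genes. In untreated organoids the largest were Ugt2b5 (3.87), Aldh1a1 (3.81) and Aldh1a7 (3.37), and with 4OHT they were Mgst1 (2.85), Ugt2b34 (2.66) and Aldh1a1 (2.41). The corresponding differences with 4OHT were 0.10 for Ugt2b5 and 0.96 for Aldh1a7. At the other end stood Adh6b (-1.06), Gstm7 (-1.02) and Ces4a (-0.79) in untreated organoids and Aldh1l1 (-0.90), Aldh4a1 (-0.62) and Sult5a1 (-0.57) with 4OHT. Among the 24 members that fell, 20 were 2-fold higher at day 6 in untreated organoids and 10 were with 4OHT. That is not a separate result. A gene with a more negative 4OHT difference at day 6 must have a smaller day difference with 4OHT, and 23 of the 24 were such genes. Whether the 4OHT effect itself differs between the days could not be tested with 1 array per group.

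**Figure D4:**
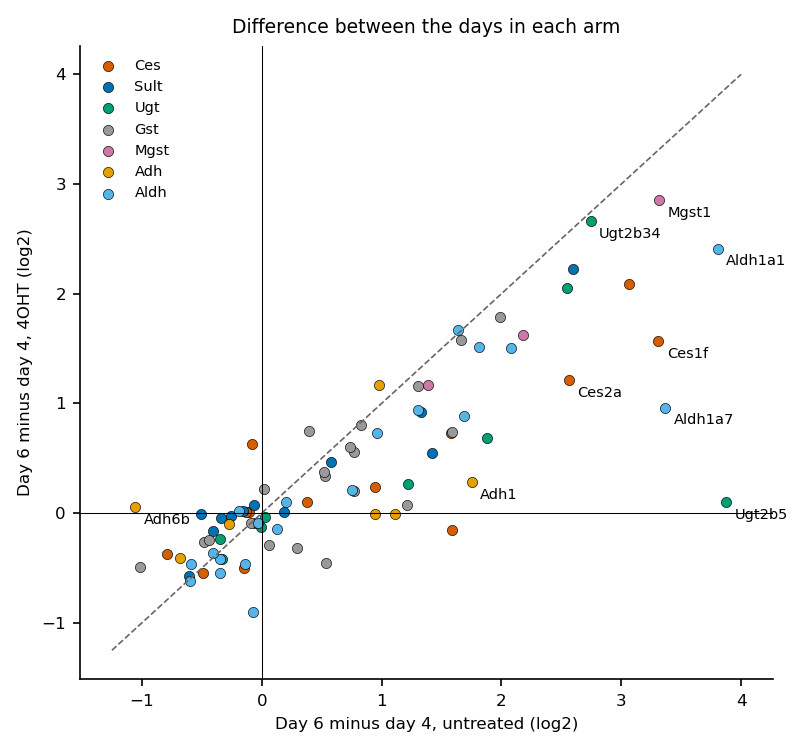
Difference of day 6 from day 4, in log2, in untreated (x axis) and 4OHT-treated organoids (y axis) for the 85 members, coloured by family. The dashed line marks equal differences. Ugt2b5 lies at 3.87 and 0.10, Aldh1a7 at 3.37 and 0.96, while Ugt2b34 lies close to the line at 2.74 and 2.66.

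Many of these genes sit side by side. All 85 matched a RefSeq gene record by identifier with the same symbol, and 84 of them are protein coding. By gene order on GRCm38.p6, 37 pairs of protein-coding members are direct neighbours. Both genes fell in 8 pairs, 1 of them in 16 and neither in 13. Genes too dim to be tested count here as not fallen, so a pair with 1 fallen gene need not differ in response. The same count over all genes was not made. The 13 Ces genes are all on chromosome 8. There Ces1d, Ces1e and Ces1f fell in a row between Ces1c, which did not pass, and Ces1g, which was not tested. On chromosome 3 the order was Adh7, Adh1, Adh6a, Adh6b, Adh4 and Adh5, and Adh1, Adh6a and Adh4 fell. On chromosome 5 the neighbours Ugt2b36 and Ugt2b5 both fell, as did the neighbours Sult1b1 and Sult1d1. Sult1e1, an oestrogen sulfotransferase beside Sult1d1, had no intensity above 12.7 and was not tested. In the Gstm group on chromosome 3, Gstm3 fell between Gstm6, which was not tested, and Gstm2, which did not pass. Aldh9a1 and Mgst3, of different families, are neighbours on chromosome 1 and both fell.

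**Figure D5:**
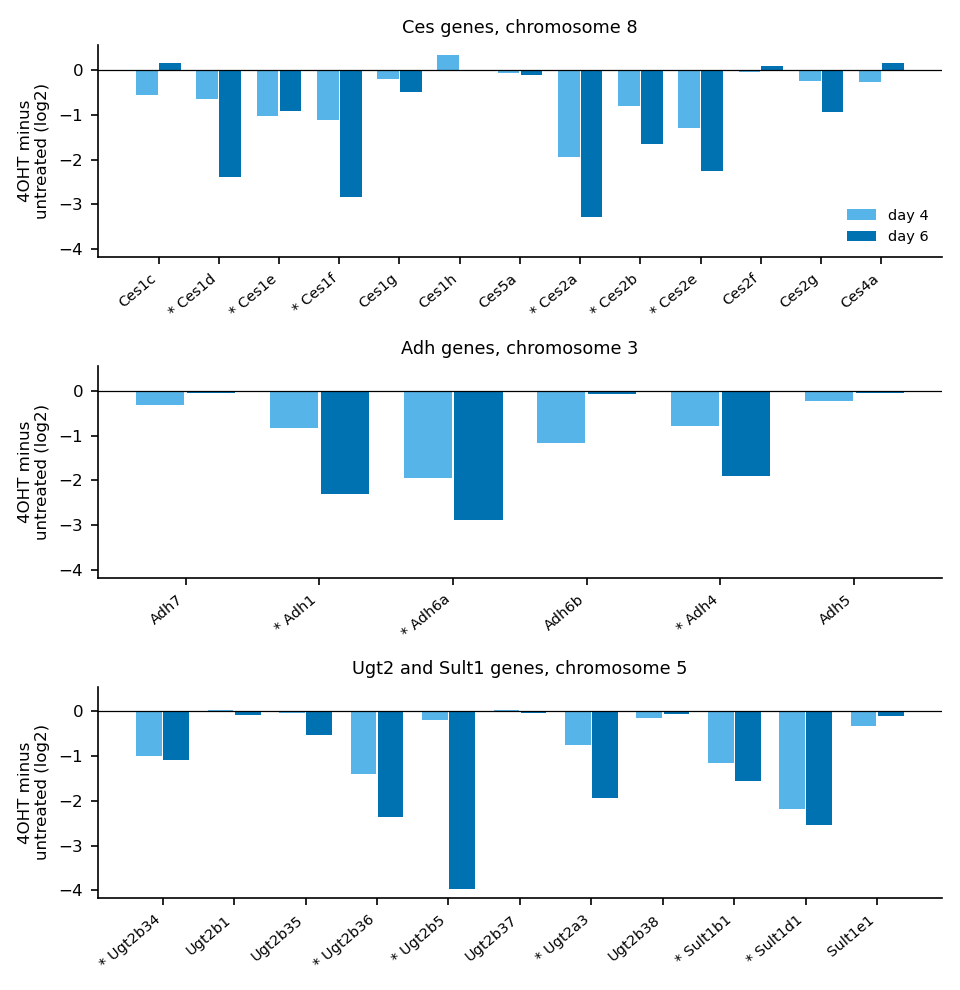
Difference of 4OHT from untreated organoids, in log2, at day 4 (light bars) and day 6 (dark bars) for members in their order along 3 chromosomes, not to scale; a star marks genes that fell. Fallen genes stand beside genes near 0, some of which were too dim to be tested. At day 6 Ugt2b5 is at -3.96, a value that rests on 1 bright array. Its neighbour Ugt2b37, at -0.04, had intensities of 5.69 to 6.28, under the level filter, so the pair shows no contrast in response.

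Genes that supply the transferred groups were read from a separate list. Of 14 measured, 4 fell and none rose, and the list's medians were -0.22 (day 4) and -0.70 (day 6). Bpnt1, which clears the nucleotide left over from sulfation, fell by 1.56 ± 0.21, and Papss1, which makes the activated sulfate, by 1.07 ± 0.21. Ugp2, which makes UDP-glucose, fell by 0.83 ± 0.22, just past the threshold (adjusted p = 0.0498 by limma). The glutathione reductase gene Gsr fell by 0.81 ± 0.21 (adjusted p = 0.045 by limma). Ugdh, which makes UDP-glucuronic acid, differed by -0.31 and -1.44 without passing (-0.87 ± 0.25, adjusted p = 0.079 by limma). Gclc, Gclm and Gss, which make glutathione, differed by -0.17, -0.25 and 0.0046 over both days, and none passed.

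Of 25 other drug-metabolizing enzymes 20 were tested, 8 fell and none rose, with medians of -0.18 and -0.72. The reductases Akr1c14 and Akr1c19 fell by 2.03 ± 0.30 and 1.93 ± 0.26, and the arylacetamide deacetylase gene Aadac by 1.81 ± 0.28. Of 19 retinoid genes 17 were tested, 4 fell and 1 rose, with medians of -0.04 and -0.05. Rdh7, a retinol dehydrogenase, fell by 1.58 ± 0.34, and Rdh11 fell by 1.07 ± 0.21. The retinol-binding protein gene Rbp7 passed with an estimate of -1.42 ± 0.30, with 4OHT values of 14.4 and 13.9, under the level filter, and untreated values of 28.8 and 128.9. Rdh10, the enzyme that oxidises retinol ahead of the Aldh1a step, rose by 0.998 ± 0.22.

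Of 18 regulators of these pathways, 2 fell and none rose, with medians of 0.03 and -0.22. The bile acid receptor gene Nr1h4 fell by 1.07 ± 0.21 and Pparg by 0.91 ± 0.21. Nr1i2, the xenobiotic receptor PXR, differed by 0.03 ± 0.21 and Ahr by -0.0023 ± 0.21. Hnf4a differed by -0.11 ± 0.21 and Cdx2 by -0.09 ± 0.21, and none of these genes passed. Also without passing, Nr1i3 differed by -0.62 and -0.44, Hnf4g by -0.59 and -0.35 and Ppara by 0.27 and -1.46. Of the 18, 8 were below 0 at day 4 and 16 at day 6, beside 8325 and 8943 of all 18193 genes. Nfe2l2, the regulator that acts through the antioxidant response element, was lower by 0.71 and 0.79 and missed the threshold (adjusted p = 0.066 by limma). Of 9 efflux transporters 8 were tested and 2 fell, the bile acid exporter subunit gene Slc51a by 1.66 ± 0.25 and Abcg2 by 1.15 ± 0.27. The exporter genes Abcc1 (1.06 and 0.56, adjusted p = 0.053 by limma) and Abcc4 (0.38 and 1.35, adjusted p = 0.066) were higher on both days and missed the threshold. The medians of that list were -0.22 and -0.62. Of the genes named from these lists as fallen, Aadac, Akr1c14, Rdh11 and Pparg reached the level filter on 1 of their 4OHT arrays.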

How the data were processed

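Labelled copy RNA was transcribed from the 3' end out of 100 ng total RNA (labels' protocols). The authors deposited linear probe-set intensities for 4 arrays; background correction, scaling and summarisation are not given in the sources used here. The table has 45101 probe sets. A single gene is named by 34958 of them, several genes by 932 and none by 9211, and 64 controls were left out. Values were used as log2(intensity + 16) without further normalization. The fit (lmFit and eBayes, 4OHT plus day) used limma 3.58.1 under R 4.3.3 (15.2 prior degrees of freedom, prior SD 0.215). It was also run on data simulated from the same additive model, which cannot check whether that model holds for these arrays. Fold counts used all 18193 genes without the level filter, which is an intensity of 20.9. Depth does not apply to arrays; their number limits precision. No label says that arrays are separate cultures. The p-values thus rest only on the disagreement of the days over these 4 arrays, combined with the prior shared by all genes.

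The members, lists, motifs and tests were chosen with earlier results of these data known. Named members were all that passed the test, the highest mean and the largest difference of each family, those with probe sets in disagreement, and the 3 largest differences between days each way. From the other lists up to 3 passing genes were named by size. Gsr, Ugdh, Gclc, Gclm, Gss, Rdh10, Nr1i2, Nr1i3, Ahr, Hnf4a, Hnf4g, Ppara, Cdx2, Nfe2l2, Abcc1 and Abcc4 were picked after their values were seen. So were the Ces, Sult, Ugt, Gst and Aldh genes named beyond these rules, and the markers named outside the enzyme lists. Alternatives were other pseudocounts, level filters, scalings, probe set rules, fold marks and priors, no day term, and each array left out. Lists of stem, Paneth, goblet, enteroendocrine, tuft and hepatocyte markers were also read. Identity between the proteins was not analysed here. Software was Python 3.11.15 with pandas 2.3.3, numpy 2.4.6 and matplotlib 3.10.9.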

Additional observations from a re-analysis of the deposited data

Results flagged for a closer look

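Gstm1 and Gstp3 differed with 4OHT in opposite directions on the 2 days, by at least 0.25 each way. Gstm1, a mu class glutathione transferase, was 0.35 higher at day 4 and lower at day 6 (-0.50), on an _x_at probe set. Of its other probe sets, 2 were also higher at day 4 and lower at day 6 (0.02 and -0.40, 0.06 and -0.14), and 1 was lower on both days (-0.36 and -0.47). Gstp3, of the pi class, was 0.30 higher at day 4 and lower at day 6 (-0.70), on its only probe set. The difference between the days was not tested in either gene, as each group has 1 array.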

How the results depend on the processing

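The 24 members that fell kept their direction under every alternative that used all 4 arrays, and 24 of 24 passed with median centring, a trended prior or a level filter at the 75th percentile. Of these 24, 21 passed after quantile normalization, 19 with probe sets averaged, 18 with the filter on the mean and 20 of the 22 left without the _x_at and _s_at kinds. The number of members past the test became 7 with a pseudocount of 1, and 0 with a pseudocount of 64, without the level filter or without the day term. The count over all genes, 425 (1835 at an unadjusted p under 0.05), became 47, 0, 0 and 0 in turn, and 232 with the filter on the mean; the cause was not tested. Leaving out 1 array and the day term together (with the day term no residual degree of freedom remains) left 0 to 9 members and 0 to 65 genes; the higher values came without the untreated array of day 4. Such a fit mixes the difference between the days into the estimate, and some estimates then turned. Among those that fell, Aldh1a1 turned to 0.51, Aldh1a7 to 0.25, Aldh9a1 to 0.12, Mgst1 to 0.003 and 0.23, Mgst3 to 0.024 and Ugt2b34 to 0.29 and 0.33. Among those that did not pass, Adh5 turned to 0.35 and 0.44, Aldh18a1 to 0.16 and 0.35, Aldh1b1 to 0.14 and 0.54, Aldh8a1 to -0.15 and -0.21, Ces5a to 0.17 and 0.19, Gsta3 to 0.24 and 0.34, Gstm1 to 0.30 and 0.72 and Gstp1 to -0.19 and -0.12. When probe sets of a gene were averaged Aldh8a1 turned to -0.12 and the day 6 median of the Sult family to 0.020; after quantile normalization the day 4 median of the Aldh family turned to -0.0001. Of 84 family medians under alternatives, 75 kept their sign and moved by less than the prior SD of the fit. The Ces medians moved to -0.82 and -1.21 with a pseudocount of 1 and to -0.27 and -0.49 with 64, the Sult median of day 4 to -0.45 with 1, the Adh median of day 4 to -0.35 with 64 and the Mgst median of day 6 to -0.79 with probe sets averaged.

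Members 2-fold lower with 4OHT at day 4 numbered 18 with a pseudocount of 1 and 4 with 64, and 23 at 1.5-fold and 3 at 3-fold. At 1.5-fold, 1 member was higher at day 4 and 1 at day 6. Members lower at day 6 than at day 4 in untreated organoids numbered 6 and 0 with pseudocounts of 1 and 64, 0 with median centring, 1 with probe sets averaged, and 7 and 0 at 1.5-fold and 3-fold. With 4OHT they numbered 2 with a pseudocount of 1, 1 after quantile normalization and 2 at 1.5-fold, and members higher at day 6 with 4OHT numbered 29 at 1.5-fold and 9 at 3-fold. The day term already sets the arms against each other within each day; by replicate number, no paired analysis was possible because the labels give none. Of 15 members with several probe sets past the level filter, 7 had probe sets that gave different directions on a day: Aldh18a1, Aldh2, Aldh7a1, Aldh8a1, Ces5a, Gsta3 and Gstm1.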

Other observations

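Markers of other epithelial lineages were read on the same arrays. Of 10 stem cell markers 4 rose and none fell: Rnf43, which removes Wnt receptors, by 1.08 ± 0.21 (SE, n = 4 arrays), Msi1 by 0.89 ± 0.21, Smoc2 by 0.84 ± 0.21 and Axin2 by 0.82 ± 0.21. Of 6 Paneth cell markers 5 rose and 1 (Reg3g, an antimicrobial lectin) fell, of 9 goblet cell markers 4 rose and 2 fell, of 11 enteroendocrine markers 2 rose, and none of 8 tuft cell markers passed (medians -0.35 on day 4, -0.11 on day 6). Of 8 hepatocyte markers, listed because these enzyme families are also abundant in liver, 6 were tested. Ttr fell by 0.87. Cyp2e1 passed with an estimate of 1.11, with untreated values of 19.5 and 10.5, under the level filter, and 4OHT values of 71.2 and 34.4. It entered the test through the 4OHT arrays, and the size of its estimate depends on the pseudocount. Intensities on this list were uneven. Alb had none above 11.7, while Ttr stood at 80.5 to 305 and Cps1, which did not pass, at 327 to 3456.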
